A study of Homo sapiens with 21 samples.

Results

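Divergent promoter pairs are places where a gene on the minus strand and a gene on the plus strand start close together and are transcribed away from each other. In the gene positions of the deposited count table (build hg38), 1398 pairs were found in which the minus-strand start lay 0 to 1000 bp upstream of the plus-strand start on chromosomes 1 to 22 or X. They involved 2756 of the 26016 genes with 1 locus there (10.6%), and the median distance between the starts was 137.5 bp (quartiles 70 and 292.5 bp). The peaks described here are those whose summit lay within 1000 bp of either start of such a pair: 3554 of the 253906 peaks of 6 libraries of DNA-RNA hybrid immunoprecipitation. Neither distance is a natural boundary. Of 29 pairs 901 to 1000 bp apart a median of 44.8% had a peak, and of 18 pairs 1001 to 1100 bp apart 33.3%, while summits 901 to 1000 bp from a start (119 in all) had a median fold enrichment of 5.17 and those 1001 to 1100 bp away (136) 4.95.

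The cells were MDA-MB-436, an established triple-negative breast cancer line with a mutated BRCA1 gene, transduced with a doxycycline-inducible lentiviral hairpin: a control hairpin (shScr, labelled WT) or a hairpin against RNF8 (shRNF8). The RNF8 protein attaches ubiquitin to chromatin around DNA breaks. Hybrids were captured from sonicated chromatin with the S9.6 antibody, a method called DRIP-seq. There were 2 libraries of shScr and 4 of shRNF8, and for each of them a library treated with RNase that carries its number. Polyadenylated RNA was sequenced in 3 libraries of each hairpin. Every group thus carried the vector. The labels give neither the dose and length of doxycycline nor the hairpin sequence, no further RNF8 hairpin and no rescue, and they name no separate cultures. The p-values therefore cover the spread of these libraries alone, and that spread may be technical.

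RNA polymerase II initiates in open, CpG-rich stretches of DNA, and where such a stretch lies between 2 starts it can feed both genes. Behind each polymerase the new RNA can pair again with its template strand and leave the other strand single, which is an R-loop. R-loops are known to form mostly over the first part of transcribed CpG-island genes, and G-rich RNA favours them. Divergent pairs are known to be rich in DNA repair, replication and mitochondrial genes, which often share 1 nucleosome-free promoter.

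The 10 promoter windows below show what such pairs look like in sequence. The first 6 had a peak in all 6 libraries and were picked from pairs described further on. The last 4 had none although their genes were transcribed. Each is the plus strand of the RefSeq promoter table (GRCh38.p14), 300 bases, written 5′ to 3′, and the capitals run from the minus-strand start to the plus-strand start of the count table. The minus-strand gene is named first and reads leftwards from the first capital, and the plus-strand gene reads rightwards from the last.
SEPT10/SOWAHC, chr2:109614114-109614413: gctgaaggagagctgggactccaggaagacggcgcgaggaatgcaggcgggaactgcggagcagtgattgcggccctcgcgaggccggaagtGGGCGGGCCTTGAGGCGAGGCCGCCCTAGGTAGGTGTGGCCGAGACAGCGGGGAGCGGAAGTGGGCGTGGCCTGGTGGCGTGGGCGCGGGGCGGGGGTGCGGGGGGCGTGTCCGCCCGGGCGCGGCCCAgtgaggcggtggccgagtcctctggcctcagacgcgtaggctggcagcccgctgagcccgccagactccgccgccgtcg
CHTF8/CIRH1A, chr16:69132399-69132698: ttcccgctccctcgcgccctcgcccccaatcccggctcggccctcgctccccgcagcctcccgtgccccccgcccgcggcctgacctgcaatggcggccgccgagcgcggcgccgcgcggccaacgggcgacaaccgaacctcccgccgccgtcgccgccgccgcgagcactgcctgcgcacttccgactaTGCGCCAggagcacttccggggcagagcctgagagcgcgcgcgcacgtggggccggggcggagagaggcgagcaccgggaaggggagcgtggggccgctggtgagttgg
CCNL2/LOC148413, chr1:1399286-1399585: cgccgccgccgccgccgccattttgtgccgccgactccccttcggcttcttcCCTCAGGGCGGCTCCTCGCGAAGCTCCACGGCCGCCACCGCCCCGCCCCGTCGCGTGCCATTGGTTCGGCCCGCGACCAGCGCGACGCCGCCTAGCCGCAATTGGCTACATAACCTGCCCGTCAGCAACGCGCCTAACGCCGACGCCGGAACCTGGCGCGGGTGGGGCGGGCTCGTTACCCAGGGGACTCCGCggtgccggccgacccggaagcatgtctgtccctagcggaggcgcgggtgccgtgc
NUP50-AS1/NUP50, chr22:45163675-45163974: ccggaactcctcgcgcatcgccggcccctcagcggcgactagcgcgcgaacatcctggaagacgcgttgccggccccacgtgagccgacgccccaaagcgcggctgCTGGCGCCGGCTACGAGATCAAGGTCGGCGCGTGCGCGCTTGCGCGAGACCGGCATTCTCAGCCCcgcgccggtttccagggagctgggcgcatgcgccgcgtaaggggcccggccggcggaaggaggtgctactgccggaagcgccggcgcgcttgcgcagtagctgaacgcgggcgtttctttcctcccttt
KMT2E-AS1/KMT2E, chr7:105013955-105014254: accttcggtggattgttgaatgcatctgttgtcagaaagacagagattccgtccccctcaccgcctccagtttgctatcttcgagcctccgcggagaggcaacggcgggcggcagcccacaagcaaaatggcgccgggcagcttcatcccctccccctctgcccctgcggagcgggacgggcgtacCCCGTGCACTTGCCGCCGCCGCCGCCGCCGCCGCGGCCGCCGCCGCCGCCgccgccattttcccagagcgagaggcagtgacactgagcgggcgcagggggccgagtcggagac
CCDC92/ZNF664, chr12:123972965-123973264: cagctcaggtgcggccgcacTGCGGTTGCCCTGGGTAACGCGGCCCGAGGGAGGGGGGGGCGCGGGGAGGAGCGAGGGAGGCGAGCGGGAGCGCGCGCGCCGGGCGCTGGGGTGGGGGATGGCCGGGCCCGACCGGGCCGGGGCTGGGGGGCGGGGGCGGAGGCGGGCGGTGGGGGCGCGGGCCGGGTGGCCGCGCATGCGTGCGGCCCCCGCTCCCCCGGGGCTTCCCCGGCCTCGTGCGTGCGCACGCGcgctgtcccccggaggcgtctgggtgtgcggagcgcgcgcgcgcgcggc
NPAT/ATM, chr11:108222589-108222888: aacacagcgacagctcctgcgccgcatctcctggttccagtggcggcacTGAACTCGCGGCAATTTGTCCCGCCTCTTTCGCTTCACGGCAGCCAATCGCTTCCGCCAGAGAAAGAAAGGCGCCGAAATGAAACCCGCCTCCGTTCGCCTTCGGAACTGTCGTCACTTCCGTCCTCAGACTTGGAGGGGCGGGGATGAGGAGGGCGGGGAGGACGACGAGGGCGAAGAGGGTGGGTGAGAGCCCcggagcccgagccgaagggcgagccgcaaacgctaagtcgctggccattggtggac
GART/SON, chr21:33542788-33543087: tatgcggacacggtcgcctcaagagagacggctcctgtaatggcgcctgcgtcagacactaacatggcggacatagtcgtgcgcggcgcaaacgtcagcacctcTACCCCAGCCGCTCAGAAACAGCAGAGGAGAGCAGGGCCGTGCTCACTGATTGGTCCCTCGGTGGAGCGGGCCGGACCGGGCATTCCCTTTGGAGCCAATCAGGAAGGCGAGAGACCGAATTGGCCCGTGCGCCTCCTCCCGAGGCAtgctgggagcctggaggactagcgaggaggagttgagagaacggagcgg
RPLP0/PXN-AS1, chr12:120201041-120201340: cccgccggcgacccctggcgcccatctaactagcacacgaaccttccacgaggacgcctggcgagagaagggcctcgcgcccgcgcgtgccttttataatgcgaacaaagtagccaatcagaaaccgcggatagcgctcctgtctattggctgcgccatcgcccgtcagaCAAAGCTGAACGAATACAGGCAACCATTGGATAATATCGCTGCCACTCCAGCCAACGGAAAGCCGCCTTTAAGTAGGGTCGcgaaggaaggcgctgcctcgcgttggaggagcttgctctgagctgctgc
HSP90AA1/WDR20, chr14:102139647-102139946: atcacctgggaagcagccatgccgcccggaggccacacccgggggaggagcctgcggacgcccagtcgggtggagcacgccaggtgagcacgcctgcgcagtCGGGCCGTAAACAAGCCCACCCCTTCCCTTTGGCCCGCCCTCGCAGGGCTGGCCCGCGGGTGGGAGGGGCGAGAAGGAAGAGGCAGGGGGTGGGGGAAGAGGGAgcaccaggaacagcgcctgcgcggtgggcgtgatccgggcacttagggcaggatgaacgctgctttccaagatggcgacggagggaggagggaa

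The stretches in capitals were 7 bases long in CHTF8/CIRH1A and 231 bases long in CCDC92/ZNF664. The GC content of the 6 windows with a peak in all 6 libraries ran from 69.0% (KMT2E-AS1/KMT2E) to 84.3% (CCDC92/ZNF664), and that of the 4 windows without a peak from 59.7% (RPLP0/PXN-AS1) to 70% (HSP90AA1/WDR20). The SP-family GC box GGGCGG occurred 4 times in the windows of CCNL2/LOC148413 and SEPT10/SOWAHC (both strands counted) and was not found in those of GART/SON, RPLP0/PXN-AS1 and NUP50-AS1/NUP50. The window of RPLP0/PXN-AS1 held 1 TATAAA and 3 CCAAT, the box of NF-Y. The palindromic NRF1 site was found once in NUP50-AS1/NUP50. Runs of GGGG, counted at every position on both strands, numbered 25 in CCDC92/ZNF664 and 1 in GART/SON. These are matches of letters in these windows and not measured binding sites.

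Over all pairs, a promoter window lay within 1000 bp of the middle of the pair for 1204 of 1398 (86.1%; the table holds none on chromosome 8). Their median GC content was 65.3%, against 58.7% over the 34961 windows of the table. Pairs with a peak in all 6 libraries had a median of 68.7%, pairs with a peak in 1 to 5 had 66.7%, and pairs with none had 63.0%. Among pairs with a gene at 10 CPM (counts scaled to equal library size) or more, the medians were 69.2% with a peak in all 6 and 63.3% with none. A ratio of observed to expected CpG above 0.6, a usual mark of CpG islands, was found in 90.3% of pair windows and 48.9% of all windows.

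Motifs were searched as exact letters on both strands, and matches of different motifs may overlap. GGGCGG was present in 74.1% of pair windows and 45.0% of all windows. Within the pairs it was present in 84.7% of those with a peak in all 6 libraries and in 64.5% of those with none. The ETS core CCGGAAG was present in 25.4% of pair windows (10.3% of all windows), in 31.9% of those with a peak in all 6 and in 22.1% of those with none. TATAAA went the other way, with 4.57% of pair windows against 11.5% of all windows, and 2.45% and 5.30% of pairs with a peak in all 6 and in none. CCAAT was present in 41.0% of pair windows (34.6% of all), and in 34.4% and 42.9% of pairs with a peak in all 6 and in none. Among pairs with a gene at 10 CPM or more, the shares with a peak in all 6 and with none were 84.0% and 71.0% for GGGCGG. They were 34.0% and 29.0% for CCGGAAG, 1.33% and 3.72% for TATAAA, and 32.7% and 43.9% for CCAAT. The palindromic NRF1 site was present in 3.57% of pair windows and 1.24% of all windows. TGACGTCA, the CRE, was present in 4.32% and 1.85%, and the ZNF143 site in 0.664% and 0.232%. CACGTG, the E-box bound by MYC, was present in 9.80% and 7.27%. These shares describe the windows, and no test of the sets was made.

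Before the results, the libraries differed in ways that touch them. On these chromosomes an S9.6 library had 32358 to 50963 peaks, and the read depth is unknown. Their log2 fold enrichments, centred on each library's median over the 8016 merged regions with a peak in all 6 libraries, fell into 3 sets: across regions, Pearson's r was 0.82 between the shScr libraries, 0.80 between shRNF8 1 and 2, 0.84 between shRNF8 3 and 4, and 0.59 to 0.67 between sets. The peak names inside the lists of shRNF8 3 and 4 carry the stems of shRNF8 1 and 2, although the peaks differ. What sets shRNF8 3 and 4 apart is not labelled, and with both shScr libraries in 1 set, hairpin and set cannot be told apart. The RNA libraries held 18121181 to 20006954 counts. RNF8 mRNA measured 28.9, 29.1 and 28.0 CPM in shScr and 9.33, 9.99 and 7.94 CPM in shRNF8 (edgeR adjusted p = 0.000165, log2 fold change -1.66, SE 0.13), and XRN2, the termination exonuclease of the series title, 144 ± 22.1 and 160 ± 7.46 CPM (SD, n = 3, edgeR adjusted p = 0.468). Of the markers of this line, VIM (963 CPM in shScr), CD44 (580) and AXL (251) were high, SPARC was at 19.9 CPM, ESR1, PGR, CDH1 and EPCAM did not pass 0.861 CPM in any library, and ERBB2 was at 57.1 CPM. PTPRC, CD3E, PECAM1 and ALB, of other cell types, stayed at or under 0.921 CPM.

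The first question was how often these starts carried a peak. S9.6 peaks lay at 617 and 482 of the 1398 pairs in shScr 1 and 2 (44.1% and 34.5%) and at 519, 498, 562 and 505 pairs in shRNF8 1 to 4 (37.1%, 35.6%, 40.2% and 36.1%). Taken start by start, 42.6% and 33.1% of the 2756 starts in pairs had a summit within 1000 bp in shScr, and 35.99%, 34.1%, 38.7% and 34.9% in shRNF8. Of 21011 single starts, with no other gene start within 1000 bp, the shares were 23.7% and 18.7% in shScr and 18.7%, 18.3%, 19.8% and 18.0% in shRNF8. Starts in pairs were higher in 6 of 6 libraries, by a mean of 17.1 percentage points (exact two-sided sign-flip permutation test over the 6 libraries, p = 0.0312, the smallest that 64 sign patterns can give). With RNA-tested genes only the difference was 8.52 points, and with genes at 10 CPM or more 4.96 points.

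**Figure D1:**
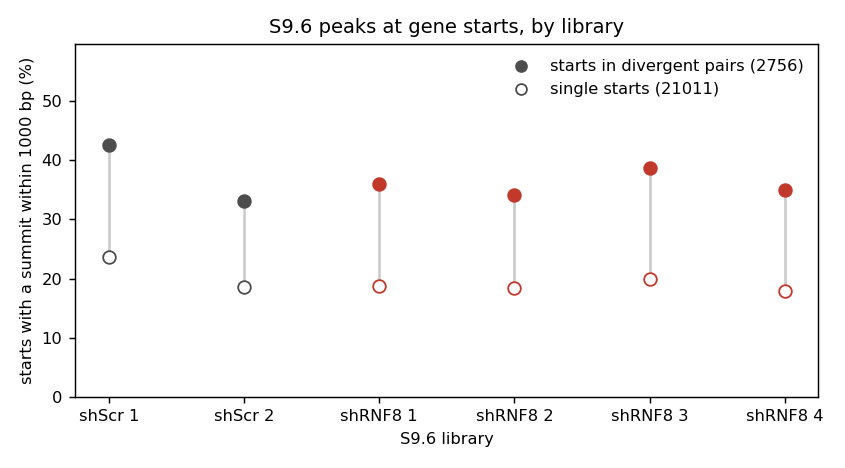
Share of gene starts (%, vertical axis) with an S9.6 summit within 1000 bp in each of the 6 S9.6 libraries (horizontal axis), for 2756 starts in divergent pairs (filled points) and 21011 single starts (open points). The filled points lie between 33.1% and 42.6% and the open points between 18.0% and 23.7%.

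The mRNA of the genes differed between the kinds of start. Of starts in pairs, 55.4% belonged to a gene at 10 CPM or more in shScr, and of single starts 35.4%. The medians were 15.4 and 0.627 CPM. Starts were therefore compared by the level of their own gene. The start of the gene with more mRNA per exon length in its pair had a peak in a median of 7.46% of cases under 1 CPM, 20.5% at 1 to 10 CPM, 34.3% at 10 to 50 CPM and 49.2% at 50 CPM or more. Single starts had 6.43%, 17.8%, 30.8% and 46.1% at the same levels, below the higher gene's start in 5, 6, 6 and 6 of 6 libraries. The start of the gene with less mRNA per length stood further away, at 26.2%, 38.8%, 43.2% and 50%, above single starts in 6 of 6 libraries at each level. Its window overlaps that of its partner by construction, so a peak of the partner is counted at both starts. These comparisons by level are descriptions, without a test.

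**Figure D2:**
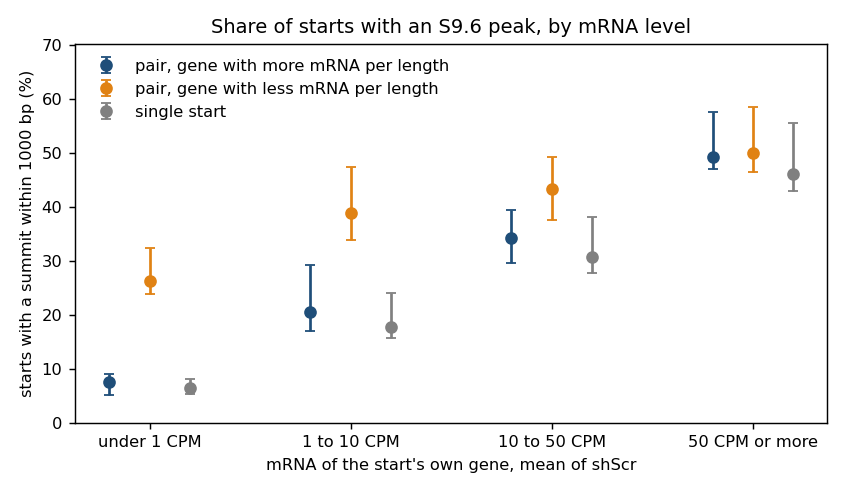
Share of starts (%, vertical axis) with an S9.6 summit within 1000 bp, by the mRNA level of the start's own gene (mean CPM of the 3 shScr RNA libraries, horizontal axis). Points are medians and bars the lowest and highest of the 6 S9.6 libraries. Starts of the gene with less mRNA per length stand at 26.2% under 1 CPM, where single starts stand at 6.43%, and the 3 kinds come within a few points at 50 CPM or more.

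Counted by pair, presence followed the mRNA of the 2 genes. Of 131 pairs with both genes under 1 CPM a median of 7.25% had a peak, of 160 with a gene at 1 CPM or more but none at 10 CPM 20.6%, of 664 with 1 gene at 10 CPM or more 40.9%, and of 443 with both 46.7%. Pairs further apart had a peak more often, from 33.9% at 0 to 100 bp (541 pairs) to 43.6% at over 500 bp (172 pairs), but the searched stretch also grows with the distance. Pairs of 2 protein-coding genes (773, median 39.1%) and pairs of 1 protein-coding and 1 non-coding gene (447, 37.5%) lay close together, and 36 pairs of 2 non-coding genes had 13.9%.

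Peaks at pairs were somewhat higher and wider at the median than all peaks of the same library, and in part nearer to peaks at single starts. Their median fold enrichment over the local background, the value that the authors' peak caller deposited, was 5.86 and 5.98 in shScr and 6.22, 5.46, 5.51 and 4.87 in shRNF8. Over all peaks it was 5.03 and 5.31, and 5.56, 5.13, 4.66 and 4.44. Peaks at single starts lay between, at 5.46 and 5.65, and 6.10, 5.43, 5.08 and 4.83. The median width at pairs was 738 and 847 bp in shScr and 806, 687, 1196 and 1028 bp in shRNF8, where shRNF8 3 and 4 had the widest peaks. At single starts it was 688 and 770 bp in shScr and 797, 656, 882 and 831 bp in shRNF8. Over all peaks it was 520 and 597 bp, and 599, 539, 656 and 654 bp.

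The RNase-treated libraries give the background of the capture. They held 731 and 997 peaks in shScr and 254, 419, 1912 and 692 in shRNF8, and a peak lay at 3 and 2 pairs in shScr and at 0, 0, 1 and 0 pairs in shRNF8. The count of 0 of 1398 allows a share of up to 0.215% (3 counts, exact 95% upper bound 0.264%, counting error only). The share of pairs with a peak was 37.9 percentage points higher in the S9.6 libraries (exact two-sided permutation test within hairpins, p = 0.00476, the smallest that 420 splits can give), and every S9.6 library was above every RNase-treated one. Single starts had a peak in 0.0143% to 0.295% of cases after RNase, against 18.0% to 23.7% in the S9.6 libraries. With so few peaks left after RNase anywhere, the test shows nothing particular to pairs. All 5 pairs with a peak after RNase had S9.6 peaks too, in at most 5 of the 6 libraries. DDX51/NOC4L, 2 genes of ribosome assembly 92 bp apart, measured 5.18 after RNase in shScr 1, against 12.1 and 8.96 in the shScr and 13.8 and 11.7 in the shRNF8 1 and 2 S9.6 libraries. PTGES2/PTGES2-AS1 measured 6.16 after RNase in shScr 1, and 11.3, 9.78, 4.12 and 5.36 in shScr 1 and 2 and shRNF8 1 and 2. FBXL6/SLC52A2 was the pair found after RNase in both shScr libraries (5.26 and 6.25, against 12.3 and 10.5 before).

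Part of the pairs had a peak in every library. A peak was present in all 6 libraries at 189 pairs (13.5%), in 5 at 119, in 4 at 155, in 3 at 134, in 2 at 145, in 1 at 142 and in none at 514 (36.8%). Of single starts 5.0% had a peak in all 6 libraries and 63.6% in none, which counts starts with and without a peak as for the pairs. Of merged S9.6 regions, each of which holds a peak by definition, 377 of the 986 at pairs (38.2%) were called in all 6, and 10.9% of all 73564. A library counts there with a peak anywhere in the merged region, also away from the pair. The mean fold enrichment over the 6 libraries had a median of 7.53 at the 189 pairs (quartiles 6.20 and 9.39, range 3.79 to 39.4). It reached 10 at 38 pairs and 20 at 8. Pairs with a peak in 1 to 5 libraries had a median of 5.21. A wide peak can also cover a pair with its summit elsewhere: 255 pairs were covered by a peak between their starts in all 6 libraries, and 607 in none.

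Among the pairs with the highest fold enrichment was MIR3912/NPM1 on chromosome 5 (171386760 and 171387704), with the nucleolar chaperone NPM1 at 2230 CPM. It measured 35.8 and 20.4 in shScr and 51.3, 30.3, 32.9 and 25.7 in shRNF8, with overlapping groups. NPM1 has many pseudogenes, so its read counts are uncertain.

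SEPT10/SOWAHC on chromosome 2 (109614206 and 109614334, 128 bp apart), of the septin SEPT10 (166 CPM) and the ankyrin-repeat protein SOWAHC (106 CPM), measured 27.95 and 27.1 in shScr and 30.0, 20.2, 17.8 and 17.3 in shRNF8. In 3 of the 4 shRNF8 libraries it was lower than in both shScr libraries. CCNL2/LOC148413 on chromosome 1 (1399338 and 1399530), where CCNL2 encodes cyclin L2, a partner of splicing kinases, measured 24.1 and 26.4 in shScr and 41.8, 30.7, 23.5 and 11.8 in shRNF8. There the peak was 5689 to 25848 bp wide, so it covers more than the promoter. CHTF8/CIRH1A on chromosome 16 (69132590 and 69132596, 6 bp apart), a sister-chromatid cohesion factor and a nucleolar protein at 71.4 and 67.8 CPM, measured 24.1 and 16.1 in shScr and 38.1, 20.003, 14.0 and 12.9 in shRNF8. The groups overlapped at both pairs.

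THUMPD3-AS1/SETD5 on chromosome 3 (9397490 and 9397700), where SETD5 is a SET-domain chromatin regulator at 177 CPM, measured 27.8 and 25.4 in shScr and 29.7, 20.8, 21.7 and 21.7 in shRNF8. MIR636/MFSD11 on chromosome 17 (76736548 and 76736565) measured 29.9 and 19.6, and 31.3, 17.3, 22.4 and 26.4. MIR1908/FADS2 on chromosome 11 (61815240 and 61816203), where FADS2 is the rate-limiting desaturase of polyunsaturated fatty acid synthesis, measured 13.9 and 18.4 in shScr and 14.3, 13.5, 37.1 and 29.2 in shRNF8. Its values were high in the shRNF8 3 and 4 libraries only, and those of shRNF8 1 and 2 lay within or below the shScr values. MIR3912, MIR636 and MIR1908 are microRNA genes that may lie inside a longer transcript. Over all pairs, a peak in all 6 libraries was present at 11 of 73 pairs with a microRNA or snoRNA gene (15.1%) and at 178 of 1325 without (13.4%).

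Where the summit lay was measured next. Of the summits at pairs, 12.9% to 15.6% lay between the 2 starts, and the median distance of the others into the gene ran from 259 bp (shScr 1) to 371 bp (shRNF8 4). Outside the stretch between the starts, 59.0% and 56.6% of summits in shScr and 55.3%, 61.9%, 55.2% and 51.8% in shRNF8 lay on the side of the gene with more mRNA per exon length (pairs with both genes under 1 CPM left out). The mean excess over 50% was 6.63 percentage points, in the same direction in 6 of 6 libraries (exact two-sided sign-flip permutation test, p = 0.0312, the smallest possible). With at least a 4-fold difference between the genes it was 8.75 points. Peaks were 687 to 1196 bp wide at the median, wider than most distances between the starts, so a summit gives the side only coarsely.

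**Figure D3:**
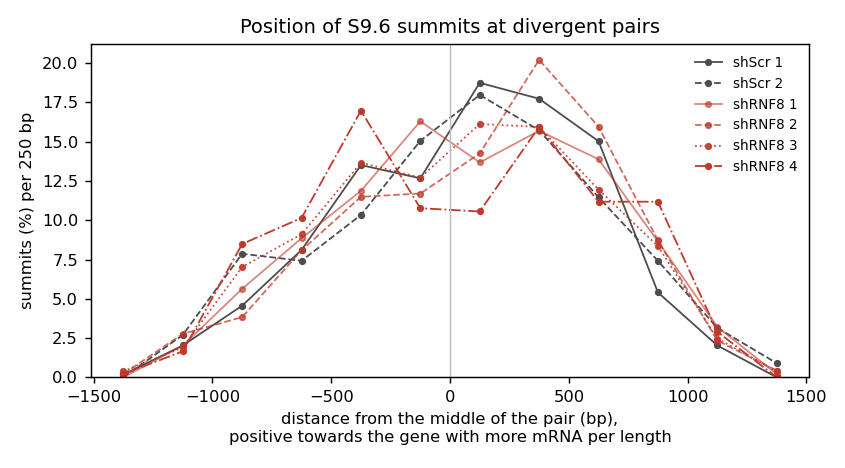
Position of S9.6 summits at divergent pairs, as the share (%, vertical axis) per 250 bp of distance from the middle of the pair (bp, horizontal axis), positive towards the gene with more mRNA per length. Lines are the 6 S9.6 libraries with 445 to 592 summits each (those between the starts and those of pairs with both genes under 1 CPM left out), and 51.8% to 61.9% lie on the positive side.

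The second question was whether the pairs differed between the hairpins. The share of pairs with a peak was 39.3% ± 6.83 in shScr (SD, n = 2) and 37.3% ± 2.05 in shRNF8 (SD, n = 4), a difference of -2.04 points that was within the spread of the libraries (exact permutation over 15 splits, p = 0.667; the smallest possible is 0.0667). Without shScr 1 it was +2.79 points. The share of a library's peaks that lay at pairs was 1.41% and 1.38% in shScr and 1.82%, 1.63%, 1.21% and 1.16% in shRNF8 (difference 0.0613 points, exact permutation p = 0.867). Here shRNF8 1 and 2 were above both shScr libraries and shRNF8 3 and 4 below both, and with shRNF8 1 and 2 alone the difference was 0.331 points, with 3 and 4 alone -0.208 points.

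The ratio of starts in pairs to single starts within a library separated the groups. It was 1.80 and 1.77 in shScr and 1.92, 1.86, 1.95 and 1.94 in shRNF8, so that each shRNF8 library lay above both shScr libraries. The difference of the means was 0.131 (1.79 ± 0.020, SD, n = 2, and 1.92 ± 0.040, SD, n = 4; exact permutation p = 0.0667, the smallest this design can give, so that p under 0.05 cannot be reached). In the 10 alternatives other than leaving out a library it ran from 0.0676 to 0.159. The separation depended on the setting: with the same number of peaks per library the ratio was 1.920 and 1.814 in shScr and 1.921, 1.885, 2.017 and 1.980 in shRNF8, so shRNF8 2 lay below shScr 1 (exact permutation p = 0.2). With peaks of a -log10 q of at least 5 the exact permutation p was 0.333, and with summits within 500 bp it was 0.2.

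Presence in 1 group only was rare. At 17 pairs (1.22%) a summit was found in all 4 shRNF8 libraries and in neither shScr library, and at 26 pairs (1.86%) in both shScr libraries and in no shRNF8 library. Of single starts 0.504% and 1.21% had these patterns. Merged regions each hold a peak by definition, unlike pairs and starts. Of the 986 regions at pairs 14 (1.42%) and 23 (2.33%) had the patterns, and of all 73564 regions 0.730% and 2.49%. At the 17 pairs no peak covered the stretch between the starts in either shScr library at 13, and at the 26 pairs none covered it in any shRNF8 library at 21. With summits within 500 bp the counts were 6 and 20, and with peaks of a -log10 q of at least 5 they were 7 and 32.

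By mean fold enrichment the first pairs with a summit only in shRNF8 were C9orf116/MRPS2 on chromosome 9 (135499915 and 135500631), with 23.5, 14.6, 14.4 and 14.1, and LIMD2/LOC729683 on chromosome 17 (63700159 and 63700338), with 19.96, 13.6, 15.3 and 13.0. MRPS2 is a protein of the small mitochondrial ribosome subunit at 121 CPM, and LIMD2 a LIM-domain protein at 24.3 CPM. A peak covered both pairs in all 6 libraries, so in shScr only a summit near the starts was missing. This holds also for MIR4638/TRIM41 (11.2, 7.24, 12.7 and 11.04), which had a peak of 4.89 after RNase in shScr 2. The heights of the covering shScr peaks were not compared. ENTHD2/C17orf89 (5.29, 4.52, 15.9 and 3.42) was covered in shRNF8 3 and in no other library.

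Among pairs with a summit only in shScr, PDDC1/LOC171391 (18.9 and 17.1), HDAC3/RELL2 (11.4 and 12.8) and TMEM129/TACC3 (11.3 and 12.1) were covered by a peak in all 6 libraries. HDAC3 is a histone deacetylase of corepressor complexes, and TACC3 a spindle protein at 222 CPM. CCDC173/PHOSPHO2-KLHL23 on chromosome 2 (169694421 and 169694454), with 10.5 and 10.1, was covered in both shScr libraries and in no shRNF8 library. Its genes were at 0.716 and 0.0891 CPM in shScr, near the limit of the RNA measurement.

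At pairs with a peak in all 6 libraries, the shRNF8 values were all above both shScr values at 22 of 189 (11.6%) and all below at 26 (13.8%). Over the 8016 regions with a peak in all 6 libraries the shares were 11.9% and 12.8%, so the pairs lay near the background. On values centred per library 25 pairs (13.2%) were above and 27 (14.3%) below, against 14.2% and 12.6% of the regions. Merged regions were then tested for a change in fold enrichment with limma. Of 377 regions at pairs 3 passed an adjusted p of 0.05, all lower in shRNF8, against 23 of all 8016 (0.287%), of which 17 were lower (0.212%). At an unadjusted p under 0.05 there were 74 of 377 and 1317 of 8016. The median log2 fold change was 0.07 over the regions at pairs and 0.03 over all. The count depends on single libraries: it was 0 without shScr 1, 0 without shScr 2, 5 without shRNF8 1 or without shRNF8 2, and 1 without shRNF8 3 or without shRNF8 4. Without shScr 1 and without shScr 2 there were 38 and 47 of the 377 regions at an unadjusted limma p under 0.05. In these 6 fits 0 to 51 of the 8016 regions passed. Nor did the direction hold in every fit: without shRNF8 2 there were 2 higher and 3 lower, with shRNF8 1 and 2 alone 8 and 8, with 3 and 4 alone 23 and 27, and with the replicate number as a block 16 and 16. Over all 8016 regions these fits called 51, 192, 969 and 467, of which 15, 115, 474 and 268 were higher. The block fit compares the same libraries as that with shRNF8 1 and 2 alone, because no shScr library is numbered 3 or 4.

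KMT2E-AS1/KMT2E on chromosome 7 (starts at 105014141 and 105014190, region 105010618 to 105015236) had the largest of these changes. KMT2E is a PHD-finger protein that binds trimethylated histone H3, and its antisense partner starts 49 bp away. The region measured 35.5 and 35.8 in shScr and 8.97, 6.40, 12.02 and 9.35 in shRNF8, so every shRNF8 value was far below both shScr values. The log2 fold change was -1.98 (SE 0.27, limma adjusted p = 0.0117), and it passed in 4 of the 6 fits that left out a library (without shScr 1 and shScr 2 the limma adjusted p was 0.521 and 0.335). In RNA neither KMT2E-AS1 (edgeR adjusted p = 0.270) nor KMT2E (edgeR adjusted p = 0.6998) passed.

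IFT20/TNFAIP1 on chromosome 17, with IFT20 of ciliary transport and TNFAIP1, a ubiquitin ligase adaptor, measured 19.8 and 17.4 in shScr and 7.64, 7.94, 5.91 and 6.99 in shRNF8 (log2 fold change -1.38, SE 0.26, limma adjusted p = 0.0384). It passed in 2 of the 6 fits that left out a library, those without shRNF8 1 and without shRNF8 2 (limma adjusted p up to 0.521 in the others). With the mean of the peaks in the region in place of the highest it did not pass (limma adjusted p = 0.123). JUND/MIR3188 on chromosome 19, with JUND of the AP-1 transcription factors, measured 60.02 and 73.8 in shScr and 30.6, 24.4, 23.9 and 25.1 in shRNF8 (log2 fold change -1.35, SE 0.28, limma adjusted p = 0.0497). Its region was 18126 bp long, a summit lay at the pair itself in 2 libraries, and with the mean of the peaks the limma adjusted p was 0.637. It too passed in 2 of the 6 fits, the same as for IFT20/TNFAIP1, and without centring the limma adjusted p was 0.0643. These values are the highest over each region, and in both regions the groups did not overlap. The regions were picked by a test of the same values, so this adds no further evidence. At IFT20/TNFAIP1 no summit lay at the pair itself in shRNF8 4.

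**Figure D4:**
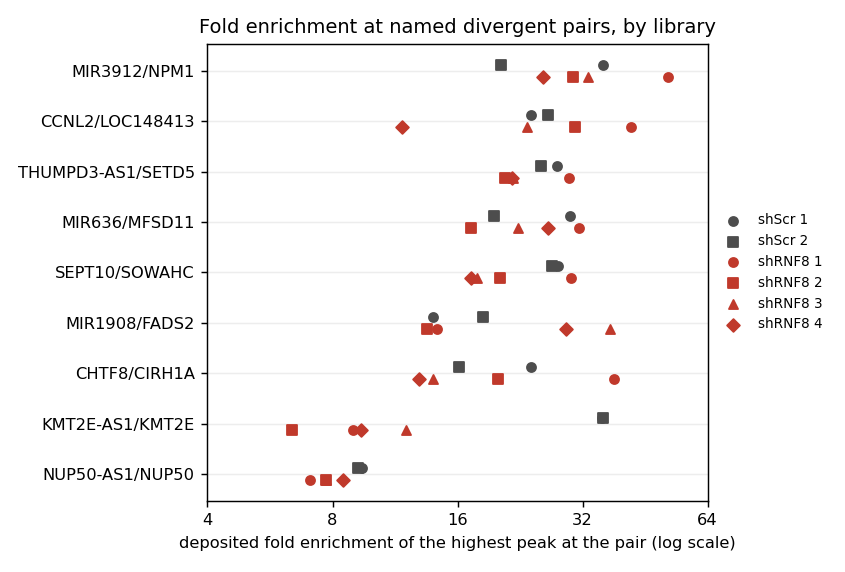
Deposited fold enrichment of the highest peak at each of 9 named divergent pairs (horizontal axis, log scale) in the 2 shScr libraries (grey) and the 4 shRNF8 libraries (red). At KMT2E-AS1/KMT2E the shScr points lie at 35.5 and 35.8 and the shRNF8 points between 6.40 and 12.02, while at the other pairs with the highest values the colours overlap or lie close.

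Well-known divergent pairs were looked up by name, and 17 of 30 were found by the rule. NUP50-AS1/NUP50 on chromosome 22 (45163781 and 45163845), of a nuclear pore protein, was the only one of them with a peak in all 6 libraries (9.44 and 9.21 in shScr, 7.07, 7.70, 7.73 and 8.47 in shRNF8). All 4 shRNF8 values lay below both shScr values there, as they did at 12.8% of the 8016 regions with a peak in all 6 libraries. Another 11 had a peak in 1 to 5 libraries and 5 in none. Those with none included NPAT/ATM, GART/SON, COL4A1/COL4A2 and SNHG1/SLC3A2, and the windows of the first 2 are printed above. None of these 4 was covered by a peak, although SON, a splicing factor, was at 370 CPM in shScr and SLC3A2, an amino acid transporter chain, at 201 CPM.

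Of these, TMEM258/FEN1, with the flap endonuclease FEN1, had a summit in shScr (14.0 and 12.1) and in shRNF8 1 and 2 (7.49 and 5.25), and was covered in all 6. SURF1/SURF2 had summits of 23.5 in shScr 2 and 14.0 in shRNF8 2, and was also covered in all 6. BRCA1/NBR2, 100 bp apart, had a peak of 9.42 in shRNF8 1 and of 3.78 in shRNF8 3 only, with BRCA1 at 26.9 CPM. U2AF1L4/PSENEN, with a subunit of gamma-secretase, measured 5.76 and 6.40 in shScr and 7.03 and 5.67 in shRNF8 3 and 4. By the highest peak of each library, UFD1L/CDC45, TAP1/PSMB9, PPAT/PAICS and PMS2/AIMP2 measured 3.72 to 6.35 in shRNF8 libraries only. Each had a peak in 2 or 3 of the 4 shRNF8 libraries, and with only 2 shScr libraries this alone does not show a gain. RECQL/GOLT1B measured 6.21 and 3.87 in shScr only, and TK1/AFMID 3.33 in shScr 1 and 3.22 in shRNF8 4.

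The pairs were also grouped by what their genes do. R-loop and termination factors had 9 pairs, 4 of them with a peak in all 6 libraries and 1 with none. These 4 were THOC7/ATXN7, with a subunit of the mRNA export complex THO (10.8 and 7.06 in shScr, 16.9, 10.3, 9.49 and 9.48 in shRNF8), DDX5/CEP95, with an RNA helicase (16.4 and 7.25, and 8.55, 10.7, 8.21 and 6.10), ITGB1BP1/CPSF3, with the endonuclease of mRNA 3′ end cleavage (3.14 and 4.19, and 10.4, 3.29, 8.26 and 6.36), and AURKA/CSTF1 (2.49 and 3.11, and 4.20, 3.82, 4.78 and 6.66). At AURKA/CSTF1 all 4 shRNF8 values were above both shScr values, and at the other 3 the groups overlapped. Of all 8016 regions with a peak in all 6 libraries, 11.9% were so above and 12.8% so below. These shares are the background for every pair with separate groups in the lists below. RNASEH1/RNASEH1-AS1, with the nuclease that removes RNA from hybrids, had peaks of 3.08 to 3.87 in 4 libraries.

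Mitochondrial ribosomal proteins had 22 pairs, 5 with a peak in all 6 libraries and 4 with none. MRPL46/MRPS11, which joins 2 such proteins 51 bp apart, measured 7.57 and 5.56 in shScr and 13.0, 9.07, 9.72 and 11.1 in shRNF8, where all 4 values were above both shScr values. Cytosolic ribosomal proteins had 16 pairs, 4 with a peak in all 6 and 4 with none. RPL12/LRSAM1 measured 23.5 and 25.3 in shScr and 11.3, 8.84, 18.6 and 8.96 in shRNF8, all below both shScr values, and RPL4/ZWILCH measured 6.67 and 15.2, and 23.5, 13.9, 8.75 and 8.21, with overlap. Genes of ribosomal proteins have many pseudogenes, so their counts and peaks are uncertain.

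Homologous recombination and Fanconi anaemia genes had 19 pairs, of which 1 had a peak in all 6 libraries and 9 (47.4%) had none. The 1 pair was HNRNPK/RMI1 (17.1 and 20.2 in shScr, 12.9, 9.57, 13.5 and 12.7 in shRNF8, all below both shScr values), with the RNA-binding protein HNRNPK on the other side. The pairs with none included PALB2/DCTN5, BARD1/LOC101928103, TEX14/RAD51C and CIDECP/FANCD2. Other DNA repair genes had 18 pairs, 3 with a peak in all 6 (NTHL1/TSC2, OSGEP/APEX1 and XPC/LSM3) and 5 with none. DNA replication genes had 10 pairs, of which POLE/PXMP2 had a peak in all 6 (6.40 and 6.09, and 8.18, 7.60, 7.20 and 6.86) and 1 had none. At POLE/PXMP2 all shRNF8 values were above both shScr values.

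Replication-dependent histone genes had 14 pairs, most of them head-to-head H2A and H2B genes on chromosome 6, with a peak in all 6 libraries at 0 and in none at 9 (64.3%). HIST3H2A/HIST3H2BB on chromosome 1 was the pair with most peaks (5 libraries, 4.01 to 6.71). These genes make mostly mRNA without a poly(A) tail, which the RNA libraries would miss. Zinc finger (ZNF) genes had 43 pairs, 5 with a peak in all 6 and 19 with none, proteasome subunits 8 pairs (0 and 2), and aminoacyl-tRNA synthetases 7 pairs (0 and 1). Over all pairs the shares were 13.5% and 36.8%.

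Some pairs with abundant mRNA had no peak. Those with the most mRNA and no summit in any library were RPLP0/PXN-AS1 (RPLP0, a ribosomal stalk protein, at 2728 CPM), HSP90AA1/WDR20 (HSP90AA1, the stress-inducible HSP90 chaperone, at 2586 CPM), and RPS2 with SNHG9 and with SNORA78 (RPS2 at 1844 CPM). The first 2 were not covered by a peak in any library. RPS2/SNHG9 and RPS2/SNORA78 were covered in all 6, with summits further than 1000 bp from the starts. Of pairs with both genes under 1 CPM 4 of 131 (3.05%) had a peak in all 6 libraries, below the 13.5% of all pairs.

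The third question was whether genes of the pairs changed in mRNA. Of 2144 genes of pairs that could be tested, 36 passed edgeR's quasi-likelihood test at an adjusted p of 0.05 (1.68%): 7 were higher and 29 lower in shRNF8. Over all 14018 genes tested 2.54% passed, 0.970% higher and 1.57% lower, so the genes of pairs lay below the background. Genes of pairs with a peak in all 6 libraries gave 6 of 328, with a peak in 1 to 5 libraries 23 of 1155, and with none 7 of 661. At an unadjusted p under 0.05 there were 348 of 2144 genes of pairs and 2813 of 14018. A single library sets this count. Without RNA library shScr 1, 482 genes of pairs passed (277 higher, 205 lower) of 3865 over all genes. Without another library 9 to 14 passed, of 46 to 132 over all genes.

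PLCD3, a phospholipase C, fell the most among the named genes, from 214, 196 and 193 CPM in shScr to 76.5, 78.1 and 65.9 CPM in shRNF8 (log2 fold change -1.45, SE 0.10, edgeR adjusted p = 0.000111). Its partner ACBD4, 67 bp away, had a log2 fold change of -0.34 (SE 0.24, edgeR adjusted p = 0.441). ZNF664, a zinc finger protein, fell from 162, 163 and 154 CPM to 67.3, 67.0 and 72.4 CPM (log2 fold change -1.21, SE 0.08, edgeR adjusted p = 0.000111). Its partner CCDC92 had a log2 fold change of -0.28. Their pair, whose window is printed above, had a peak in all 6 libraries (8.79 and 8.18 in shScr, 9.86, 6.47, 7.24 and 7.74 in shRNF8, overlapping), and that of PLCD3 in 5.

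BHMT2, a methyltransferase that makes methionine, fell from 73.0, 79.8 and 76.1 to 43.2, 34.3 and 42.8 CPM (log2 fold change -0.93, SE 0.11, edgeR adjusted p = 0.00291), while DMGDH, 50 bp away and an enzyme of the same choline pathway, had a log2 fold change of 0.33 (edgeR adjusted p = 0.312). PDGFA, a platelet-derived growth factor chain, fell from 46.1 ± 0.188 to 25.3 ± 0.970 CPM (SD, n = 3, log2 fold change -0.86, edgeR adjusted p = 0.00206). COPE, a coat protein of Golgi vesicles, fell from 163 ± 2.73 to 104 ± 3.47 CPM (SD, n = 3, log2 fold change -0.64, edgeR adjusted p = 0.00396), and DDX49 beside it had -0.02. These 5 genes passed in all 6 fits that left out a library.

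Of the higher genes, HIST1H2BK, a histone H2B gene known to make polyadenylated mRNA, rose from 12.5, 12.5 and 11.6 to 24.2, 25.4 and 29.2 CPM (log2 fold change 1.10, SE 0.12, edgeR adjusted p = 0.00206), with no S9.6 peak at its pair. PKIB, an inhibitor of protein kinase A, rose from 4.17, 4.28 and 2.28 to 10.6, 8.56 and 13.0 CPM (edgeR adjusted p = 0.00964, log2 fold change 1.58, SE 0.25) and passed in 4 of 6 such fits, and SERINC1 beside it had 0.03. POLR2A, the largest subunit of RNA polymerase II, measured 330, 261 and 273 CPM in shScr and 437, 432 and 364 CPM in shRNF8 (log2 fold change 0.51, SE 0.11, edgeR adjusted p = 0.0402). Its pair with ZBTB4 had a peak in all 6 libraries (13.3 and 9.57 in shScr, 8.44, 6.49, 18.4 and 18.0 in shRNF8), low in shRNF8 1 and 2 and high in 3 and 4. PEG10, a gene derived from a retrotransposon (log2 fold change 0.39, edgeR adjusted p = 0.0402), and NAP1L3, a nucleosome assembly protein (0.46, edgeR adjusted p = 0.0481), passed as well. These 3 passed in 1 of 6 such fits each, that without shScr 1.

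**Figure D5:**
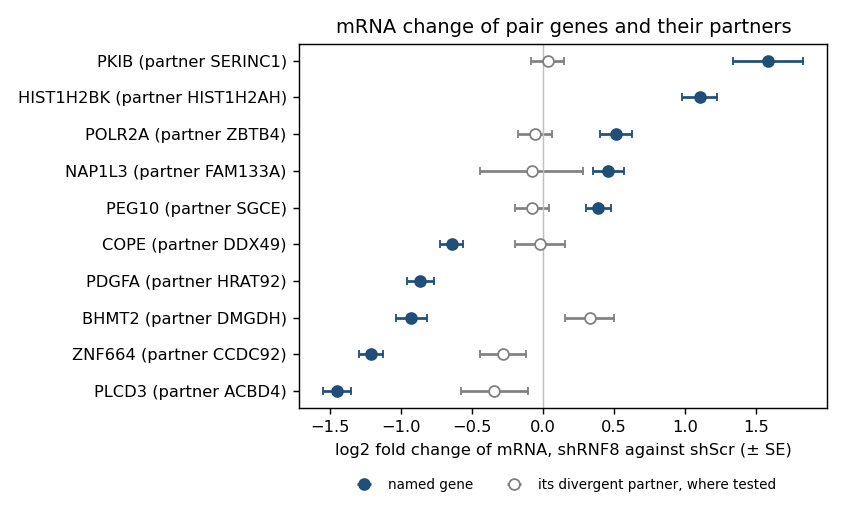
Log2 fold change of mRNA between shRNF8 and shScr (horizontal axis, with SE bars) for 10 named genes of divergent pairs (filled) and for the divergent partner of each (open) where it was tested. The filled points run from -1.45 (PLCD3) to 1.58 (PKIB) and the open points from -0.34 (ACBD4) to 0.33 (DMGDH).

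In 884 pairs both genes were tested by edgeR, and both passed in 0 pairs and 1 gene in 27. Only 1.68% of genes of pairs passed, so a count of 0 cannot show whether partners change together. At an unadjusted p under 0.05, reached by 348 of 2144 genes of pairs, both partners were found in 19 pairs. With DESeq2 both passed in 1 pair, with limma-voom in 0. The log2 fold changes had the same sign in 459 pairs (51.9%), and across these pairs Pearson's r was 0.07 and Spearman's rho 0.06, a description across genes, which are not independent replicates. The counts do not use strand, so reads from overlapping parts of 2 partners cannot be told apart. Of the lists, homologous recombination, other repair, replication, R-loop and termination factors, cytosolic ribosomal proteins and proteasome subunits had 0 genes of pairs that passed edgeR. At an unadjusted p under 0.05 they had 3 of 18, 2 of 17, 3 of 10, 2 of 9, 4 of 14 and 1 of 8 tested genes. The background was 348 of 2144 genes of pairs and 2813 of all 14018 genes. With DESeq2 1 gene of the cytosolic ribosomal proteins passed. A gene passed in each of 4 lists, with 23, 7, 49 and 7 genes tested: MRPL14 (log2 fold change -0.70, edgeR adjusted p = 0.0198), AARS (-0.42, edgeR adjusted p = 0.0393), ZNF664 and HIST1H2BK. MRPL14 passed in 2 and AARS in 1 of the 6 fits that left out a library (highest edgeR adjusted p 0.138 and 0.178).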

How the data were processed

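The deposited table held raw fragment counts for 26485 genes in 6 RNA libraries, made with featureCounts from read pairs with no strand option, per the file headers. For each of the 6 S9.6 and 6 RNase-treated libraries the authors deposited a list of peaks called per library, with a linear ratio per peak, its fold enrichment against local background, and -log10 of its p-value and q-value. The submitters' processing notes list build hg38, Trim Galore 0.6.6, Bowtie2 2.2.6, STAR 2.7.9a, SAMtools 1.14, Picard 2.10.9, MACS2 2.2.7.1, deepTools 3.5.1, featureCounts and Subread 2.0.1 with no roles, and the control of the peak calls is not given in the sources used here. The 3 input libraries were not analysed here. Groups came from the sample titles.

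Gene starts were taken from the count table, and pairs, single starts and summits (peak start plus offset) were defined as in the text. Library measures were compared by exact permutation. Peaks of the 6 S9.6 libraries that shared at least 1 bp were merged, and log2 of the highest fold in each region with a peak in all 6 libraries, centred per library, was tested with limma 3.58.1 (trend, robust). Counts were tested with edgeR 4.0.16 (TMM, filterByExpr, robust glmQLFit and glmQLFTest) in R 4.3.3, and CPM are TMM-scaled. Both were adjusted over all features by Benjamini-Hochberg at 0.05, with DESeq2 1.42.0 as an alternative. Peak lists were read in Python 3.11.15 (NumPy 2.4.6, SciPy 1.17.1, pandas 2.3.3) and plots drawn with matplotlib 3.10.9. The scripts were tested on simulated data with known answers before use.

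Named pairs were the 8 with the highest mean fold in all 6 libraries and distinct genes, up to 4 found only in each hairpin, the well-known pairs that the rule finds, the 5 higher and 5 lower called genes at a mean of 5 CPM or more, by smallest p, up to 4 with a peak in most RNase-treated libraries, and up to 4 with no peak and the most mRNA. Results for 3 named pairs are not reported here. The members, lists and rules were chosen with earlier results of these data known. RefSeq promoter windows of 300 bases were matched by position.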

Additional observations from a re-analysis of the deposited data

Results flagged for a closer look

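In 24 sets of values over the 4 shRNF8 libraries, 3 had a library far from the others by Dixon's test, which chance gives in about 1 of 20 sets. At THUMPD3-AS1/SETD5 the fold enrichment was 29.7 in shRNF8 1, against 20.8, 21.7 and 21.7 in shRNF8 2, 3 and 4. At C9orf116/MRPS2 it was 23.5 in shRNF8 1, against 14.6, 14.4 and 14.1. At ENTHD2/C17orf89 it was 15.9 in shRNF8 3, against 5.29, 4.52 and 3.42. The first 2 stand apart in shRNF8 1, the S9.6 library with the fewest peaks (32358), and the third in shRNF8 3, the one with the most (50963). The part of peak number in these values was not tested.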

How the results depend on the processing

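The settings that split or leave out shRNF8 1 and 2 or 3 and 4, leave out pairs of microRNA or snoRNA genes, or count covering peaks were chosen after seeing the data. The higher share of starts in pairs than of single starts, the side of the summit and the excess over RNase-treated libraries kept their direction under each setting run. Leaving out 1 library gave 16.7 to 17.6 points for starts in pairs and 5.58 to 7.61 for the side of the summit (exact permutation p = 0.0625 for both, the smallest 5 libraries can give), and 36.6 to 38.6 for S9.6 against RNase (exact permutation p = 0.00476). With shRNF8 1 and 2 only these were 16.6, 8.21 and 37.8 points, and with 3 and 4 only 17.3, 5.64 and 38.6 (exact permutation p = 0.125, 0.125 and 0.0556, the smallest possible). The share of peaks at pairs turned to -0.0184 points with summits within 500 bp, -0.0379 with the same number of peaks per library, -0.0613 without shRNF8 1 (leave-one-out range -0.0613 to 0.159) and -0.208 with shRNF8 3 and 4 only. The share of pairs with a peak turned to 2.79 points without shScr 1 (range -6.87 to 2.79) and to 0.966 with covering peaks. The difference between hairpins in the pair-to-single ratio stayed between 0.118 and 0.1504 with 1 library left out. Pairs with a peak in all 6 libraries numbered 97 with summits within 500 bp, 240 within 2000 bp and 116 at a -log10 q of at least 5. Regions called at pairs numbered 8 with quantile normalization, 1 with the mean of the peaks, 16 with shRNF8 1 and 2 only, 50 with 3 and 4 only and 0 to 5 with 1 library left out. Genes of pairs called in RNA numbered 93 with DESeq2 and 66 with no filter on low counts (852 and 648 over all genes). With 1 library left out they numbered 9 to 482 (46 to 3865 over all genes). Causes of these moves were not tested. Same-numbered samples showed no strong positive correlation of their deviations from the group means (r -0.054, 0.108 and -0.233 in RNA, -0.017 and -0.029 in DRIP). With so few libraries, and only 2 of shScr in DRIP, these values cannot tell whether samples were paired. With the replicate block 32 regions and 51 genes of pairs were called (467 and 513 over all regions and genes). In DRIP this block compares shScr with shRNF8 1 and 2 only. There the shares of peaks at pairs and of pairs with a peak differed between hairpins by 0.331 and -2.93 points (exact permutation p = 0.5 and 1).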

Other observations

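At some pairs with a high peak the summit lay within 1000 bp of a start in some libraries and further away in others. Among pairs with a summit in 1 to 5 libraries 9 had a mean fold enrichment of at least 20, and the highest, JUND/MIR3188, had 42.2. All 9 were covered by a peak between their starts in all 6 libraries, so what differed was the position of the summit. MED22/RPL7A, with a Mediator subunit and a ribosomal protein, measured 22.8 in shScr 1 and 32.01 and 15.002 in shRNF8 1 and 2. MRPS34/EME2 had 33.2 in shRNF8 4 and no summit near its starts in the others.

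By chromosome, the median share of pairs with a peak was 51.6% on chromosome 17 (94 pairs) and on chromosome 22 (32 pairs), 44.0% on chromosome 19 (92 pairs), 24.0% on chromosome 6 (77 pairs), 21.8% on X (39 pairs) and 20.2% on chromosome 15 (42 pairs). Peaks in all 6 libraries were found at 25% of pairs on chromosome 22 and at 2.60% on chromosome 6. Most histone pairs lie on chromosome 6, and their part in its low share was not tested.

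Of the peaks at pairs, 19.3% to 29.3% per library shared an exact start or end base with a peak of another S9.6 library, against 11.2% to 20.6% of all peaks. The labels describe sonicated chromatin.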
